A study of Mus musculus with 2 samples.

Results

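The 48 genes described here act in G2 phase and mitosis and were taken by symbol from a list of such genes, drawn up with earlier results of these data known. All 48 were found among the 19394 genes of the matrix. Their transcripts were counted in cultured mouse renal progenitors given DMSO vehicle or panobinostat, which inhibits histone deacetylases. The cells came from kidney cortex of healthy 9-week-old C57Bl/6 mice that carried Pax2.rtTA, TetO.Cre and R26.mT/mG in both groups. In these mice the Pax2 promoter drives an inducible Cre recombinase that switches descendants of Pax2-expressing cells from tdTomato to GFP. Glomeruli were left to grow out for 5 days, GFP-positive cells were sorted, and after 16 h of starvation they were kept for 48 h with vehicle or 0.2 µM panobinostat. The labels name 2 mice, without saying whether they were pooled, and 1 droplet single-cell library per treatment.

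With 1 library per treatment there was no replicate check and no test. The effect of the drug and any other way in which the libraries differ cannot be told apart, and all intervals are for counting error alone. From 2854 vehicle cells 90754967 UMIs (distinct counted molecules) were obtained, and from 2281 panobinostat cells 104188927. The median cell had 27924 UMIs in the former and 42394 in the latter, and the libraries shared 0 cell barcodes. Transcript of the GFP reporter was at 7601 and 7680 CPM (UMIs per 1000000 UMIs of the library, vehicle first in each pair of values). Pax2, the lineage marker, was at 40.4 and 24.9 CPM, and Pax8 at 120 and 120 CPM. The summed leukocyte markers, 4 of 5 in the matrix, were at 5.30 and 68.2 CPM, of which Cd68 made up 4.11 and 65.5 CPM and Ptprc 0.606 and 1.98 CPM. The 5 endothelial markers summed to 9.08 and 3.19 CPM, with Emcn at 6.68 and 0.0864 CPM and Kdr, in the other direction, at 0.793 and 2.57 CPM. The 5 mesangial and stromal markers summed to 15.3 and 27.0 CPM, of which Gata3 made up 14.5 and 22.2 CPM. For the tubule, 5 of 6 markers summed to 0.771 and 13.0 CPM, with Lrp2 (0.650 and 11.7 CPM) higher. Of podocyte markers, Synpo was higher at 5.86 and 11.8 CPM, only just past 2-fold (log2 ratio 1.01, interval 0.86 to 1.15), and Podxl was at 3.86 and 7.62 CPM. Wt1 and Umod had 0 UMIs in the vehicle library, which allows up to 0.0331 CPM. The part of other cell types in the values below was not tested.

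Cells enter mitosis when the kinase Cdk1, bound to a cyclin, is switched on, and they leave it when the anaphase-promoting complex marks the cyclins and other proteins for destruction. Between these points chromosomes are condensed, attached through kinetochores to spindle microtubules, separated, and enclosed in new nuclei before cytokinesis divides the cell. Most genes of this programme are transcribed in late S phase and G2 under the MuvB complex with B-Myb and FoxM1. Their promoters are known for a cell cycle genes homology region (CHR), often next to CCAAT boxes bound by NF-Y, and in resting cells the DREAM complex holds many of them silent. In adult glomeruli most resident cells are not dividing, and outgrowth in culture brings progenitors back into the cycle.

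The G2/M transcripts made up a far smaller part of the panobinostat library. Summed over the 48 genes they came to 4259 CPM with vehicle against 748 CPM with panobinostat, and all 48 log2 ratios of panobinostat to vehicle were negative in CPM, while G2e3 (0.38) and Gtse1 (0.11) turned positive in UMIs per cell. Calls of lower or higher required a 2-fold ratio, a 95% interval that left out equality, and a level of 10 CPM in either library. By this rule 43 of the 47 members past that floor were lower and 0 were higher, against 11.0% of all 8872 genes past the floor called lower and 9.85% called higher. Members at low levels with panobinostat passed the floor through the vehicle library alone, which leaves a lower call as the usual outcome for them. The median log2 ratio was -4.07 over these 47 members and -0.07 over all genes past the floor. With vehicle the members ranged from 9.37 to 257 CPM, and with panobinostat from 0.163 to 111 CPM, with 13 of the 48 under 1 CPM.

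**Figure D1:**
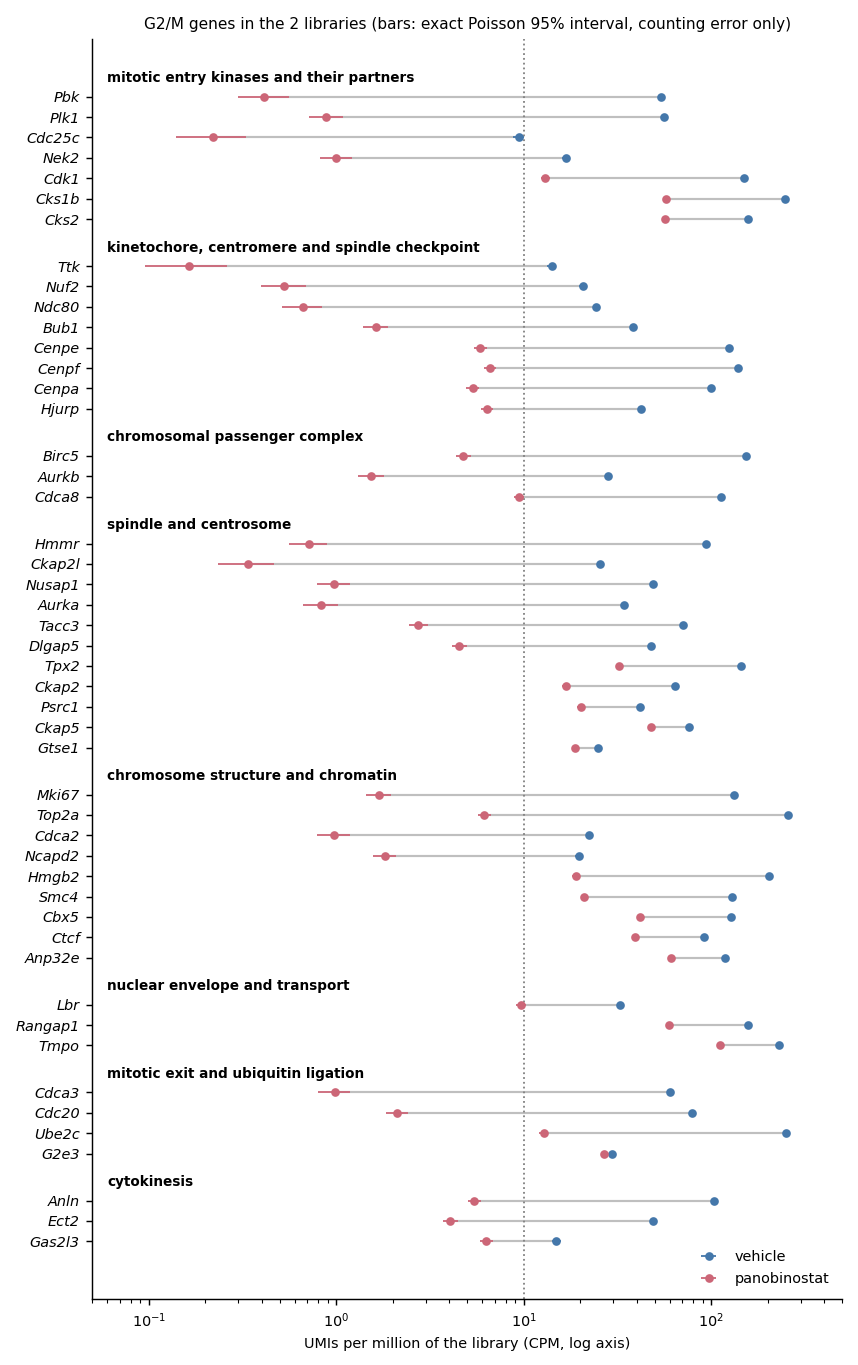
Level of each of the 48 G2/M genes in CPM (log axis) with vehicle and panobinostat, 1 library each, joined by a line and grouped by role, with exact Poisson 95% intervals as bars and a dotted line at 10 CPM. Most lines are long and run to the left, while those of Ckap5, Gtse1, Anp32e and G2e3 span less than 2-fold.

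The members that kept most of their level were G2e3, Gtse1, Ckap5 and Anp32e, the 4 under 2-fold. G2e3, a ubiquitin ligase named for its expression in G2, was at 29.5 CPM with vehicle against 26.7 CPM with panobinostat, a log2 ratio of -0.14 (interval -0.22 to -0.07). Gtse1, a microtubule-binding protein that also restrains p53 in G2, was at 24.99 and 18.8 CPM, a log2 ratio of -0.41 (-0.50 to -0.32). Ckap5, a microtubule polymerase at centrosomes and spindle poles, was at 76.0 and 47.5 CPM, a log2 ratio of -0.68 (-0.73 to -0.63). All of these remained above 10 CPM in both libraries. Anp32e, a chaperone that removes the histone variant H2A.Z, was at 119 and 61.0 CPM, a log2 ratio of -0.96 (-1.01 to -0.92), just outside the 2-fold threshold. Psrc1 at -1.04 and Tmpo at -1.05 lay just inside it, and both lost the call when ratios were centred on the median gene (-0.98 each). Anp32e passed it with TMM factors from edgeR (-1.08). Panobinostat cells held more UMIs, and in UMIs per cell, where every log2 ratio is higher by 0.52, G2e3 was at 0.937 and 1.22 UMIs and Gtse1 at 0.795 and 0.858, both above vehicle.

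The promoters of the members shared letters that the choice of members did not use. RefSeq windows on GRCm38.p6, from 250 bases before to 50 bases after the transcription start, were found for 41 of the 48 members, 46 windows in all because 5 members had a pair. Each was searched on both strands for CHR letters (TTTGAA or TTCGAA) and for CCAAT, which can overlap by an end letter. CHR letters were in 33 of the 46 windows (71.7%), against 19.2% of all 32851 promoter windows of the same length. CCAAT was in 35 (76.1%), against 37.4% of all windows, and both were in 28 (60.9%), against 7.52%. Aurkb, Cdc25c, Cdca2, Dlgap5, Pbk, Smc4 and Tpx2 had no entry. The 130 bases before the start of 7 members are shown, 5′ to 3′ along the gene's strand, with matches in capitals, where TTCAAA stands for a CHR match and ATTGG for a match to CCAAT on the other strand. None of these bases lies in an annotated GENCODE exon. Mki67, Ckap2l, Top2a and Hmgb2 were chosen as strongly lower genes that hold matches, Nuf2 as a strongly lower gene without one in this stretch, and Ckap5 and Gtse1 as genes under 2-fold that hold matches. Gtse1 also has another window, whose 130 bases before the start hold no match, and neither of its windows holds CHR letters.
Mki67, chr7:135716380-135716509, minus strand: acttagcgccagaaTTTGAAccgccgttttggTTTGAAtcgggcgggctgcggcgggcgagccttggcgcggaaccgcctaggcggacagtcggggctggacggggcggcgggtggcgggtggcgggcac
Ckap2l, chr2:129297213-129297342, minus strand: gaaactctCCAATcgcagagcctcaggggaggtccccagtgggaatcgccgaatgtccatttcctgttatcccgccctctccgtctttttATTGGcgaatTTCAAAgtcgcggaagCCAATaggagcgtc
Top2a, chr11:99024190-99024319, minus strand: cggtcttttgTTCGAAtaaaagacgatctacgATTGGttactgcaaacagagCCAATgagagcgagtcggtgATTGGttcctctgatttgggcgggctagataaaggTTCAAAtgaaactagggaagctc
Hmgb2, chr8:57511713-57511842, plus strand: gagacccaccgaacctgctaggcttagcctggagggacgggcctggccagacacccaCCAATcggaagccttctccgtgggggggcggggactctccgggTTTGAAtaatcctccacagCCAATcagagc
Nuf2, chr1:169531465-169531594, minus strand: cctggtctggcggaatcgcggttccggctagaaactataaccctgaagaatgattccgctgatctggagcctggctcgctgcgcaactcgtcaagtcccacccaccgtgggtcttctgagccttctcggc
Ckap5, chr2:91526632-91526761, plus strand: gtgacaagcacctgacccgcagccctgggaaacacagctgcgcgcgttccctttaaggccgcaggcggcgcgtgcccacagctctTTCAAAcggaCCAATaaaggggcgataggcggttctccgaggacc
Gtse1, chr15:85859577-85859706, plus strand: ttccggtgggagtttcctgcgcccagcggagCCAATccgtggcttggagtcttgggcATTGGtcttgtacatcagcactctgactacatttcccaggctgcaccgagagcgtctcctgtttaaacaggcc
Mki67 holds 2 CHR matches, at -116 and -98 from the start, and no CCAAT in this stretch. Top2a holds CHR matches at -120 and -23 and 3 CCAAT matches between them, at -98, -78 and -58. Hmgb2 holds a CHR match at -30 between CCAAT matches at -73 and -11. The stretch of Ckap5, whose level differed by less than 2-fold, holds a CHR match at -45 beside a CCAAT match at -35. The 31 members with CHR letters in a window had a median log2 ratio of -3.59 (-7.04 to -0.68), and the 10 without had -4.24 (-5.66 to -0.14). Members under 2-fold were 2 of the 31 and 2 of the 10. The 32 members with CCAAT had a median of -3.58, with 3 under 2-fold, and the 9 without had -4.69, with 1 under 2-fold. These differences were not tested. A match is a string of letters and no measured binding site.

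Among the kinases that drive entry into mitosis and their partners, all 6 members past the floor were lower (median log2 ratio -3.79). Pbk, a mitotic serine/threonine kinase, was at 54.0 CPM with vehicle against 0.413 CPM with panobinostat, a log2 ratio of -7.03 (-7.50 to -6.60). Plk1, the polo-like kinase needed for centrosome maturation and bipolar spindles, was at 56.1 and 0.883 CPM (-5.99, interval -6.30 to -5.69). Nek2, a kinase that helps centrosomes part, was at 16.7 and 0.998 CPM (-4.07, -4.37 to -3.78). Their transcripts were close to gone from the panobinostat library, whereas the core kinase was not. Cdk1 was at 149 and 13.0 CPM, a log2 ratio of -3.52 (-3.60 to -3.44). The small Cdk-binding subunits held more still. Cks1b was at 246 and 57.2 CPM (-2.11, -2.15 to -2.06), and Cks2 at 157 and 56.4 CPM (-1.47, -1.52 to -1.43). Reads of Cks2 cannot be fully assigned, because the last 500 bases of its transcript hold 229-base matches to 3 processed pseudogenes at 98.3% identity or more. In UMIs per cell the log2 ratio of Cks2 was -0.95, under the threshold. Cdc25c, the phosphatase that activates Cdk1, stayed under the floor at 9.37 and 0.221 CPM, a log2 ratio of -5.41 (-6.07 to -4.81).

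All 8 kinetochore, centromere and spindle checkpoint members were lower, with a median of -4.49. Ttk, the kinase that starts checkpoint signalling at unattached kinetochores, was at 14.1 CPM with vehicle against 0.163 CPM with panobinostat, where it had 17 UMIs in all, a log2 ratio of -6.43 (-7.21 to -5.75). Bub1, a checkpoint kinase that Ttk recruits, was at 38.2 and 1.62 CPM (-4.56). The microtubule-binding Ndc80 complex was lower in both of its listed subunits. Nuf2 was at 20.6 and 0.528 CPM (-5.29, -5.70 to -4.90), and Ndc80 at 24.4 and 0.662 CPM (-5.20, -5.57 to -4.86). The 2 very long kinetochore proteins showed ratios close to each other. Cenpe, a kinesin that moves chromosomes to the spindle equator, was at 124 and 5.85 CPM (-4.41), and Cenpf, a kinetochore protein of G2 and mitosis, at 139 and 6.61 CPM (-4.39). Cenpa, the histone H3 variant that marks centromeres, was at 99.5 and 5.34 CPM (-4.22), while its chaperone Hjurp was at 42.1 and 6.37 CPM (-2.72, -2.85 to -2.61), the smallest ratio of these 8. Cenpf counts are uncertain because the end of its transcript holds sequence found in many other genes, and a single panobinostat cell held 41 of its 689 UMIs.

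The 3 listed subunits of the chromosomal passenger complex, which corrects faulty attachments and then moves to the midzone, were all lower (median -4.20). Birc5, or survivin, was at 152 and 4.76 CPM, a log2 ratio of -5.00 (-5.13 to -4.87). The kinase Aurkb was at 28.1 and 1.54 CPM (-4.20, -4.43 to -3.97), and Cdca8, or borealin, at 113 and 9.44 CPM (-3.58, -3.68 to -3.48). The intervals of the 3 subunits do not meet, so within this complex the ratios differed beyond counting error.

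Of the 11 spindle and centrosome members, 9 were lower and 2 were under 2-fold, with a median of -3.40. Hmmr, a microtubule-associated protein of the spindle poles, had the most negative ratio of all 48 genes: 93.6 CPM with vehicle against 0.710 CPM with panobinostat, a log2 ratio of -7.04 (-7.39 to -6.71). Ckap2l was at 25.5 and 0.336 CPM (-6.25, -6.77 to -5.77), and its relative Ckap2 at 63.9 and 16.8 CPM (-1.93, -2.01 to -1.85), so these related spindle proteins stood far apart. Nusap1, which bundles spindle microtubules, was at 48.9 and 0.969 CPM (-5.66, -5.95 to -5.37). Aurka and the proteins that work with it also spread over a wide range. The kinase itself was at 34.3 and 0.825 CPM (-5.38, -5.70 to -5.07), its substrate Tacc3 at 70.5 and 2.74 CPM (-4.69), and its activator Tpx2 at 143 and 32.3 CPM (-2.15, -2.20 to -2.09). Tacc3 recruits Ckap5 to spindle microtubules, and Ckap5 was among the genes under 2-fold. Dlgap5, a spindle protein also called HURP, was at 47.6 and 4.52 CPM (-3.40), and Psrc1, which regulates microtubule ends, at 41.5 and 20.1 CPM (-1.04, -1.12 to -0.97).

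Of the 9 members that shape chromosomes and chromatin, 8 were lower and Anp32e was under 2-fold, with a median of -3.42. Mki67, the proliferation marker that coats mitotic chromosomes, was at 132 and 1.68 CPM, a log2 ratio of -6.30 (-6.53 to -6.09). Top2a, the topoisomerase that untangles sister chromatids, was at 257 and 6.15 CPM (-5.38, -5.50 to -5.27). Cdca2, which brings a phosphatase to chromosomes at mitotic exit, was at 22.4 and 0.969 CPM (-4.53, -4.83 to -4.24). The 2 condensin subunits differed from each other: Ncapd2 was at 19.6 and 1.81 CPM (-3.43, -3.66 to -3.22), and Smc4 at 130 and 21.1 CPM (-2.62, -2.69 to -2.56). Hmgb2, a DNA-bending protein of proliferating cells, was at 203 and 18.98 CPM (-3.42). Cbx5, the heterochromatin protein HP1 alpha, was at 127 and 41.4 CPM (-1.62), and Ctcf, the insulator and loop-anchoring factor, at 91.6 and 39.0 CPM (-1.23, -1.29 to -1.18).

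The 3 members of the nuclear envelope and of nuclear transport were lower by the least, with a median of -1.39. Tmpo, whose products tie lamins to chromatin, was at 230 and 111 CPM (-1.05, -1.08 to -1.02). Rangap1, the activator of the Ran GTPase that also sits at kinetochores, was at 156 and 59.3 CPM (-1.39, -1.44 to -1.35), and Lbr, the lamin B receptor, at 32.5 and 9.64 CPM (-1.75, -1.86 to -1.65). In UMIs per cell Tmpo (-0.53) and Rangap1 (-0.87) were under 2-fold.

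Among the 4 members of mitotic exit and ubiquitin ligation, 3 were lower and G2e3 was under 2-fold, with a median of -4.76. Cdca3, an F-box-like protein that promotes destruction of the mitotic inhibitor Wee1, was at 60.4 and 0.979 CPM (-5.95, -6.24 to -5.66). Cdc20, which activates the anaphase-promoting complex in metaphase, was at 79.0 and 2.10 CPM (-5.23, -5.43 to -5.04). Ube2c, the ubiquitin-conjugating enzyme of that complex, was at 251 and 12.8 CPM (-4.29, -4.37 to -4.21). All 3 cytokinesis members were lower (median -3.59). Anln, or anillin, which organises the contractile ring, was at 104 and 5.45 CPM (-4.25, -4.38 to -4.13), and Ect2, the exchange factor that activates RhoA at the midzone, at 48.9 and 4.06 CPM (-3.59, -3.74 to -3.44). Gas2l3, which links actin and microtubules late in division, was at 14.9 and 6.31 CPM (-1.24, -1.37 to -1.10), and in UMIs per cell it was under 2-fold (-0.72).

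**Figure D2:**
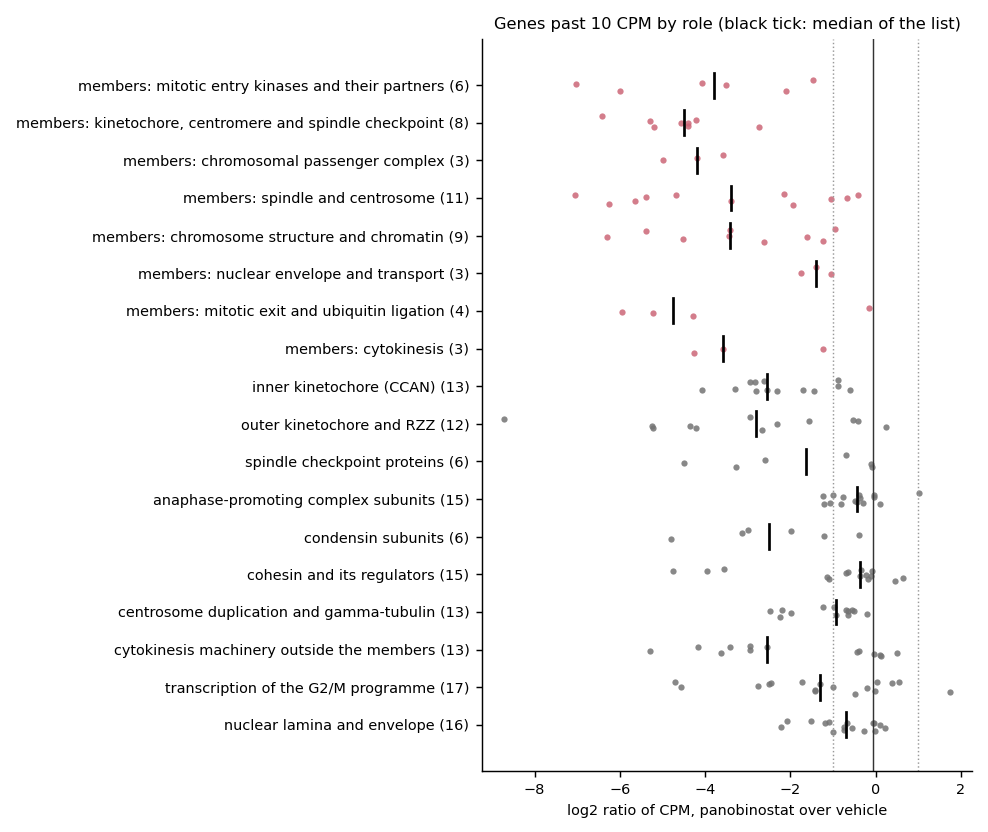
Log2 ratio of CPM, panobinostat over vehicle, for the 47 members past the floor by role and for genes past the floor of the other mitotic lists, with the number of genes in brackets, the median of each group as a black tick, dotted lines at 2-fold and a solid line at the median of all genes. Kinetochore members have a median of -4.49 and nuclear envelope members -1.39, and genes of the anaphase-promoting complex have a median of -0.44.

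Other genes of the same machinery, listed by role, were read against the shares of all genes past the floor, 11.0% lower and 9.85% higher. In the inner kinetochore 10 of 13 genes past the floor were lower and 0 higher (median -2.56), led by Cenpp (11.5 to 0.681 CPM, -4.08) and Cenpk (20.6 to 2.08 CPM, -3.30). In the outer kinetochore 9 of 12 were lower (median -2.81). Ska1, which helps kinetochores hold microtubule ends, had 1459 UMIs with vehicle and 4 with panobinostat (log2 ratio -8.71, -10.59 to -7.35). Knl1, the scaffold for checkpoint proteins, was at 43.5 and 1.14 CPM (-5.25). Zwint, which links that scaffold to other proteins, stood apart at 156 and 186 CPM (0.26). Of the checkpoint proteins 3 of 6 were lower (median -1.63): Bub1b (-4.49), Trip13 (-3.28) and Mad2l1 (-2.59). Bub3 (139 and 86.6 CPM) and Mad1l1 (22.3 and 21.0 CPM) were under 2-fold.

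The list of the anaphase-promoting complex held its subunits and Fzr1, an activator like Cdc20. Of these 15 genes, all past the floor, 3 were lower, 1 was higher and 11 were under 2-fold (median -0.44). Over all genes past the floor, 11.0% were lower and 9.85% higher. Fzr1 was among those under 2-fold, at 28.9 and 22.6 CPM (-0.36). Anapc5 was at 167 and 70.7 CPM (-1.24) and Anapc11 at 121 and 52.6 CPM (-1.20). Anapc13, the gene called higher, was only just past the 2-fold threshold at 45.5 and 92.3 CPM (1.02, 0.97 to 1.07). Condensin had 5 of 6 subunits lower (median -2.49), led by Ncapg2 (-4.80) and Ncapg (-3.14). Cohesin and its regulators had 5 of 15 lower (median -0.36), led by Esco2 (-4.75), which acetylates cohesin in S phase, and Sgo1 (-3.96), which protects it at centromeres. Genes of centrosome duplication had 5 of 13 lower (median -0.94), led by Plk4 (-2.47) and Sass6 (-2.25). The cytokinesis machinery outside the members had 7 of 13 lower (median -2.55), led by Cit (-5.30) and Kif20a (-4.16), while Rhoa itself was at 554 and 608 CPM (0.13). Of the nuclear lamina and envelope 5 of 16 were lower (median -0.70), led by Rcc1 (-2.23) and Lmnb1 (-2.07).

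Of 17 genes that control transcription of G2/M genes and passed the floor, 9 were lower and 1 was higher (median -1.31). The shares of all genes past the floor were 11.0% and 9.85%. Foxm1 was at 15.9 and 0.614 CPM (-4.70, -5.08 to -4.34), and Mybl2, which encodes B-Myb, at 22.7 and 0.960 CPM (-4.56, -4.87 to -4.27). Rb1, the retinoblastoma protein gene, was at 23.0 CPM with vehicle against 77.3 CPM with panobinostat (1.75, 1.68 to 1.82).

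At equal depth fewer panobinostat cells held the transcripts of most members, and those that did held fewer copies. For this comparison cells were thinned to 18663 UMIs, which kept 2401 vehicle cells and 2221 panobinostat cells and left out 453 and 60 shallower ones. At that depth the median member was seen in 50.7% of vehicle cells and 9.39% of panobinostat cells (56.5% and 20.3% before thinning). With panobinostat 19 of the 48 members were seen in under 5% of thinned cells, against 0 of 48 with vehicle. Every member was at 9.37 CPM or more with vehicle, which makes so low a share unlikely there. No share of all genes under 5% was computed to set beside these counts. Top2a was found in 60.1% (interval 58.1% to 62.1%) of cells with vehicle and 10.8% (9.545% to 12.2%) with panobinostat, with a mean of 8.18 and 1.15 UMIs per cell that had any (62.4% and 22.0% before thinning). Ube2c was seen in 64.5% and 19.2% of cells, with 7.05 and 1.22 UMIs in those cells (69.1% and 36.0% before thinning). Over the members the mean per cell with any had a median of 2.30 UMIs with vehicle and 1.10 with panobinostat, close to the least that can be seen.

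At the same depth 25 members were seen in over 50% of vehicle cells and 8 in over 50% of panobinostat cells, with no share of all genes computed. Tmpo was seen in 93.7% of vehicle and 84.0% of panobinostat cells (94.5% and 94.9% before thinning), with 4.64 and 2.47 UMIs in those cells. Anp32e was seen in 79.8% and 66.8% (87.1% and 89.0% before thinning). G2e3 was found in 39.0% (37.0% to 41.0%) of cells with vehicle and 37.5% (35.4% to 39.5%) with panobinostat, the only member whose intervals met (48.7% and 65.1% before thinning). For the other 47 members the panobinostat interval lay below the vehicle interval, as it did for 23.8% of all genes seen in thinned cells, and it lay above for 0 members, against 30.4% of all genes. Free RNA in droplets can add single UMIs, no cell type here lacks these genes by definition, and the part of free RNA in these shares was not tested.

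The sum over all 48 members showed how cells differed within each library. A thinned vehicle cell held a median of 64 member UMIs, from 5 to 289, and saw a median of 27 of the 48 genes. A thinned panobinostat cell held a median of 14, from 3 to 54, and saw a median of 9 genes. With vehicle 863 of 2401 cells (35.9%) held 100 or more, and with panobinostat 0 of 2221 did, which allows a share of up to 0.135%. The vehicle cells at 50 or more numbered 1312 and held 87.2% of all member UMIs of thinned vehicle cells. Only 2 panobinostat cells reached 50, with 54 and 53 UMIs, in which 22 and 25 of the 48 genes were seen. The 266 panobinostat cells (11.98%) with 5 or more UMIs of other mitotic genes held 16.1% of the Top2a UMIs and 11.5% of Tmpo. They held 21.6% of the 74 Hmmr UMIs, 20.8% of the 101 Nusap1 UMIs, 19.05% of 42 Pbk UMIs and 34.8% of 23 Cdc25c UMIs. The shares of Cdc25c, Hmmr and Nusap1 were the highest of all members and rest on 8, 16 and 21 UMIs in these cells. The lowest were those of Aurkb (10.6%, resting on 17 UMIs), Gas2l3 (10.8%) and Hmgb2 (10.9%). Other members, such as Tpx2 (11.0%), Tmpo and Cks1b (11.6%), were also under the share of cells. Apart from Cenpf, the 28 members with 300 or more panobinostat UMIs had 3.69% to 13.3% of them in the top 1% of cells, against 31.6% for Cenpf. For members with few UMIs the top 1%, which is 23 cells, can hold a large part with few UMIs each, as for Hmmr (45.9%, at most 5 UMIs in a cell) and Nusap1 (38.6%, at most 6).

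**Figure D3:**
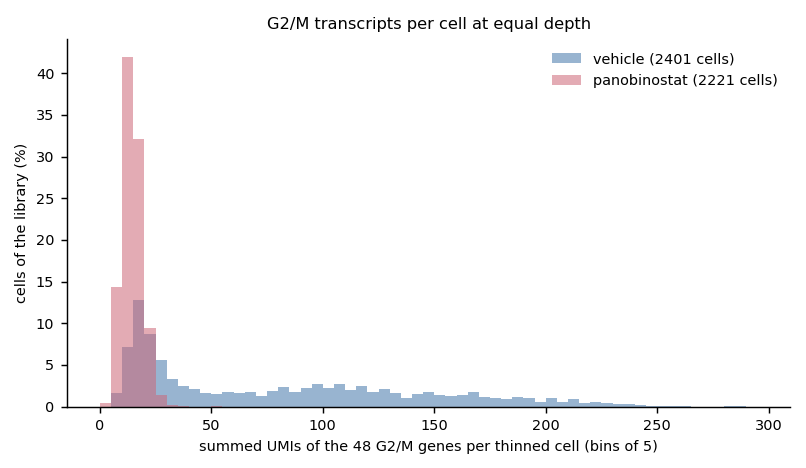
Summed UMIs of the 48 G2/M genes per cell at equal depth (bins of 5 UMIs), as a percentage of the thinned cells of each library. Vehicle cells spread from 5 to 289 with a long right side, and panobinostat cells sit between 3 and 54.

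Cells were then grouped, without using the members, by 29 other mitotic genes, such as cyclins and kinesins, and by 37 other S-phase genes. These anchor lists had 27 of 27 and 34 of 36 genes past the floor lower with panobinostat, against 11.0% of all 8872 genes. They were led by Ccna2 (-8.64) and Ccnb2 (-7.87) and by Cdc6 (-6.30) and Clspn (-5.78). Anchor genes at low levels with panobinostat passed the floor through the vehicle library alone, which leaves a lower call as the usual outcome for them. Of thinned vehicle cells, 1143 (47.6%) held 20 or more mitotic anchor UMIs, and of panobinostat cells 0 of 2221 did. Cells with at most 4 mitotic and under 20 S-phase anchor UMIs are called low-anchor cells here, a range of a score and not a cell type. They numbered 700 with vehicle (29.2%) and 1955 with panobinostat (88.0%). Near the limits, 181 vehicle and 437 panobinostat cells held 4 or 5 mitotic anchor UMIs, and 46 and 3 cells held 19 or 20 S-phase anchor UMIs.

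Within the vehicle library nearly all members were higher in cells rich in the mitotic anchor. The anchor genes belong to the same programme as the members, so a rise was largely set by this choice of cells. The values below describe its size and are no independent support. Summed member CPM was 957 in low-anchor cells, 1454 in 104 cells with the S-phase anchor alone, and 7330 in cells with 20 or more mitotic anchor UMIs. At least 2-fold higher in the last than in low-anchor cells, with an interval excluding equality, were 46 of 48 members, against 5.03% of all genes with a UMI in either class. No floor was set here, so that share takes in genes at any level, while the members were at 9.37 CPM or more in the vehicle library. The median log2 ratio of the members was 4.18. Mki67 had the steepest difference, from 1.60 to 260 CPM (7.34), and Nusap1 went from 0.657 to 102 CPM (7.28). Psrc1 (38.4 and 45.7 CPM, 0.25) and Ctcf (59.9 and 118 CPM, 0.98) were the 2 exceptions. Cells with the S-phase anchor alone held 16 members at 2-fold or more above low-anchor cells, against 2.12% of all genes with a UMI in either class. They also held more mitotic anchor UMIs, a median of 3 against 1 in low-anchor cells, so these differences cannot be placed in S phase alone. Among the 16 members were Mki67 (2.39, resting on 27 and 39 UMIs), Cdca2 (2.38, 11 and 16 UMIs) and Top2a (2.06, 115 and 209 UMIs).

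How far a member differed between treatments went with how much higher it was in mitotic-anchor than in low-anchor vehicle cells. The mitotic-anchor cells also held a median of 53 S-phase anchor UMIs, against 7 in low-anchor cells. The contrast therefore does not single out mitosis from the rest of the cycle. The 28 members at 16-fold or more in mitotic-anchor over low-anchor vehicle cells had log2 ratios of panobinostat to vehicle in all cells between -7.04 and -3.40. The other 20 lay between -4.25 and -0.14, and all 4 members under 2-fold were among them. Both measures share the vehicle counts, so this is a description.

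**Figure D4:**
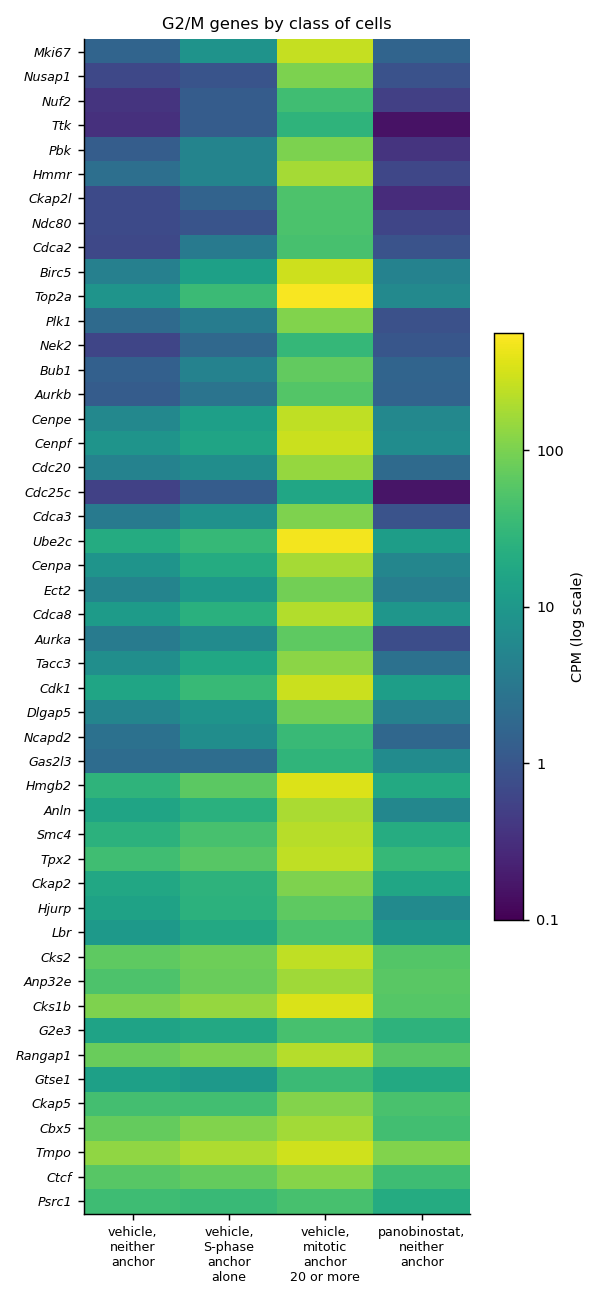
Heat map of the level (CPM, colour on a log scale) of each of the 48 members in 4 sets of cells: vehicle low-anchor cells (neither anchor), vehicle cells with the S-phase anchor alone, vehicle cells with 20 or more mitotic anchor UMIs, and panobinostat low-anchor cells. Summed over the members, the columns hold 957, 1454, 7330 and 744 CPM.

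The members were also compared between low-anchor cells of both treatments. This choice keeps 29.2% of vehicle and 88.0% of panobinostat cells and takes out cells with high levels of genes that vary together with the members, so a smaller difference follows in part from the choice itself, and it shows levels in such cells and no cause. Of 21 members past the floor in these cells, 2 were lower, 0 were higher and 19 were under 2-fold, against 6.92% of all 8660 genes lower and 9.11% higher. The median log2 ratio was -0.33, against -0.00 over all genes. Low-anchor cells held a median of 1 mitotic and 7 S-phase anchor UMIs with vehicle and 2 and 8 with panobinostat, counted after thinning. Summed member CPM was 957 and 744. Cdk1 was at 16.0 CPM in vehicle and 12.7 CPM in panobinostat low-anchor cells (-0.33, -0.50 to -0.16), and Mki67 at 1.60 and 1.62 CPM (0.02, -0.50 to 0.56). Birc5 was at 4.35 and 4.66 CPM (0.10, -0.21 to 0.42), and Rangap1 at 76.9 and 59.3 CPM (-0.37).

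Some members still differed there. Anln was at 15.3 and 5.45 CPM (-1.49, -1.69 to -1.29), and Hjurp at 14.3 and 6.29 CPM (-1.18, -1.38 to -0.98). These are the 2 members called lower in low-anchor cells, of 21 past the floor, against 6.92% of all 8660 genes. So few calls do not set the members apart from other genes. Cks1b was at 108 and 57.1 CPM (-0.91, -0.98 to -0.85), Psrc1 at 38.4 and 20.0 CPM (-0.94, -1.06 to -0.82), and Cbx5 at 72.2 and 41.3 CPM (-0.81). Below the floor, where no call is made, the lowest ratios were picked out by their size. Aurka was at 3.65 and 0.766 CPM (-2.26, -2.73 to -1.79) and Cdca3 at 3.45 and 0.897 CPM (-1.94, -2.40 to -1.49). Hmmr was at 2.34 and 0.634 CPM (-1.88, -2.44 to -1.33). Without a floor, intervals lay below equality for 27 of 48 members, against 26.6% of all genes with a UMI in these cells, spanned it for 16 and lay above it for 5, against 35.2%.

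The 5 with more transcript in panobinostat low-anchor cells included all 4 members under 2-fold in the whole libraries. G2e3 was at 15.2 CPM with vehicle against 26.1 CPM with panobinostat (0.79, 0.63 to 0.95), Gtse1 at 13.3 and 18.9 CPM (0.50, 0.33 to 0.68), Anp32e at 51.0 and 61.1 CPM (0.26, 0.17 to 0.35), and Ckap5 at 42.0 and 47.3 CPM (0.17, 0.07 to 0.27). None of these reached 2-fold. Gas2l3, under the floor in both, was at 2.09 CPM (51 UMIs) and 6.34 CPM (580 UMIs), a log2 ratio of 1.60 (1.18 to 2.04). With the stricter choice of 0 mitotic anchor UMIs, which left 154 vehicle and 250 panobinostat cells, 3 of 20 members past the floor were lower, against 7.23% of all 8641 genes, and 0 were higher, against 9.79%. These were Hjurp (-1.69), Anln (-1.39) and Psrc1 (-1.23), and the median was -0.44.

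**Figure D5:**
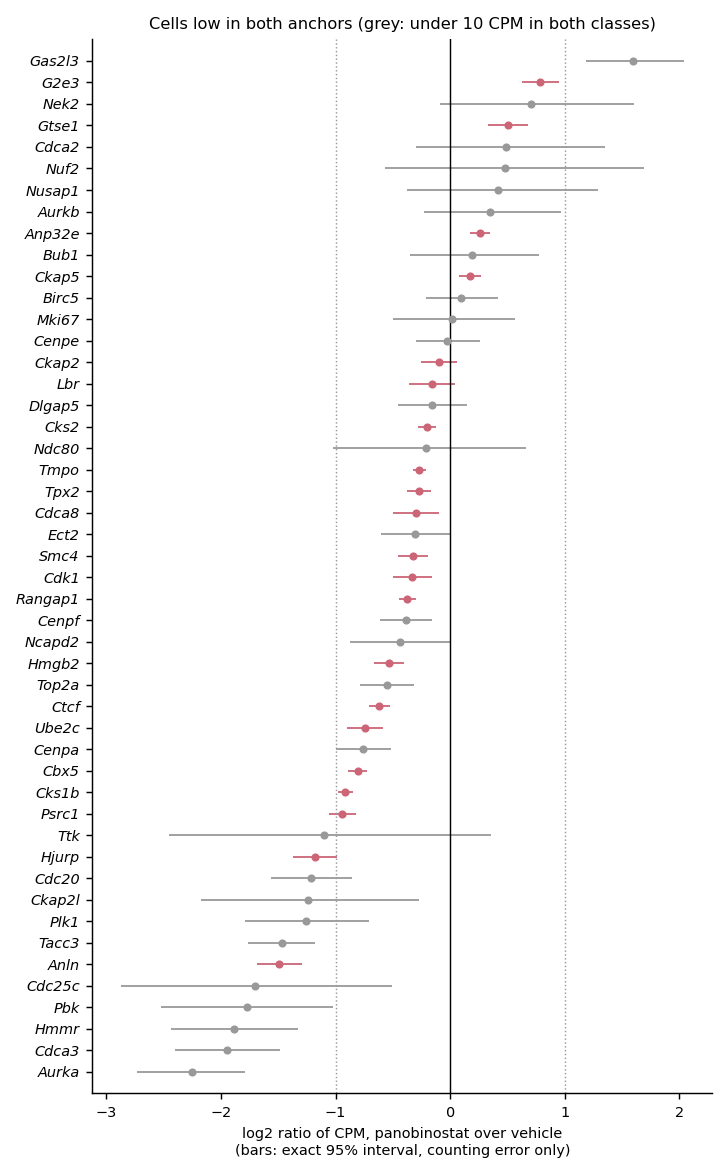
Log2 ratio of CPM, panobinostat over vehicle, with its 95% counting interval for each of the 48 members in low-anchor cells, in red where the level reached 10 CPM in either treatment and in grey where it did not. Within the dotted lines at 2-fold lie 35 members, with Aurka at -2.26 at the low end and Gas2l3 at 1.60 at the high end.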

How the data were processed

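Per the labels' protocols, 3′ libraries of sorted cells were made on the 10x Chromium system and sequenced on an Illumina NextSeq500. Cell Ranger 3.0.1 and mm10 were used, per the submitters' processing notes, with the counting annotation not given in the sources used here. UMI counts were deposited unnormalized for 5135 cells and 19394 genes, with cells assigned to a library by a mark in their names. The lowest cell had 1798 genes and the highest mitochondrial share was 9.98%, so cells had been filtered before deposit. No further filter was applied, and no doublet caller was run.

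Counts were summed per library and scaled to CPM. Ratios have exact conditional binomial (Clopper-Pearson) 95% intervals, shares exact binomial ones and CPM values exact Poisson ones, all for counting error only. No p-value was computed because cells are not replicates. For shares and cell classes each cell was thinned to the 10th percentile of cell totals, and levels of a class are sums of its unthinned counts. Promoter letters came from RefSeq windows, and transcript ends (last 500 bases) were compared with GENCODE transcripts at 95% identity over 90 bases or more, which 5 of 48 members matched: Cks2, Cenpf, Mki67, Ndc80 and Rangap1. The members, lists and classes were chosen with earlier results of these data known. Every member is named. Intervals accompany the 3 members with the largest ratio of each role, members under 2-fold and 10 set genes, and of each other list the 2 largest ratios and genes called higher are named, with Mad2l1, Bub3, Mad1l1, Zwint, Fzr1 and Rhoa named after their values were seen. The low-anchor class was defined after seeing the data. The summed podocyte marker list is not reported here.

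Alternatives were TMM factors (edgeR 4.0.16), size factors (DESeq2 1.42.0), centring, UMIs per cell, other floors and thresholds, thinned sums, per-cell means and other anchor limits. The code for the calls and the thinning was checked on simulated independent Poisson counts, with known ratios planted for the calls. These counts hold no spread between cells and no difference between libraries, so the check does not bear on the comparison itself. Versions were R 4.3.3 and Python 3.11.15 with scipy 1.17.1 and numpy 2.4.6.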

Additional observations from a re-analysis of the deposited data

How the results depend on the processing

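The count of members lower stayed at 37 to 45 under TMM, DESeq2, centring, UMIs per cell, floors of 1 CPM or none, a 1.5-fold threshold, a mean over cells and thinning, and was 34 at 4-fold. With a floor of 50 CPM it was 26 of 28 past the floor, since fewer genes were tested. No member was called higher under any of these settings, and the members' median ranged from -3.54 to -4.19. The median over all genes moved to -0.19 with TMM, -0.20 with DESeq2 and 0.45 in UMIs per cell. Of all calls 47.3% were higher, against 36.9% with DESeq2. Over all genes 973 were lower, against 438 in UMIs per cell, 250 at 4-fold and 2059 at 1.5-fold, and 1870 without a floor, where more genes were read. In UMIs per cell Cks2, Psrc1, Ctcf, Tmpo, Rangap1 and Gas2l3 lost their call. In cells with 0 mitotic anchor UMIs, 6 of 41 members were lower with a floor of 1 CPM, a wider set than the 20 past 10 CPM. Under the other limits, among them 2 added after seeing the data, 2 to 4 were lower. Of all genes past 10 CPM, 7.23% were lower in cells with 0 mitotic anchor UMIs and 6.92% in low-anchor cells. Such shares under the other settings are not given here, so these counts are not read as a result about the members. No paired analysis was possible because each treatment has 1 library and no replicate could be left out. In cells with 0 mitotic anchor UMIs depth limits 28 members, which were under the floor there.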
